A study of Salmo salar with 51 samples.

Results

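The 200 array probes described here reached their highest signal in Atlantic salmon embryos at 10 days post-fertilization (dpf), which the study stages as somitogenesis. They were chosen from the measured values. Among the probes whose Cy5 signal reached 500 without a spot flag on all 3 arrays of 10 dpf, those with the largest difference between the mean deposited value at 10 dpf and the highest mean of the other 16 time points were taken. The 200 came from 16322 ranked probes of the 43689 on the array, and 4 probes were left out before ranking. These 200 probes are called the members. Since the rule used the height of 10 dpf over every other time point, that height and all differences between 10 dpf and another time point are given as a description, without a test.

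The series covers untreated, normally developing S. salar of the McConnell (Mowi) strain, raised in fresh water. Whole individuals were sampled at 2, 5, 10, 15, 20, 25, 30, 35, 41, 47, 53, 59, 65, 71, 77, 83 and 89 dpf, with 3 individuals and so 3 arrays per time point, 51 arrays in all. The study places 2 dpf in blastulation, 5 dpf in gastrulation, 10 dpf in somitogenesis and both 15 and 20 dpf in vascularization of the yolk sac. RNA of each individual was labelled with Cy5 and hybridized against 1 common pool labelled with Cy3, to which all time points contributed and 2 dpf contributed less material. Samples of 2, 5 and 10 dpf were small, and additional extractions and labelling reactions were needed for them. Values are log2 ratios of Cy5 to Cy3 after loess normalization within each array, so a value of 0 means the level of the pool and not the absence of a transcript, and levels of different probes cannot be set against each other. In whole animals, a larger share of cells of a type and more RNA per cell cannot be told apart.

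During somitogenesis the paraxial mesoderm on both sides of the neural tube is divided into somites, one pair after another from head to tail, while the tail bud still adds tissue behind. A segmentation clock of Notch pathway repressors of the Hes family sets the rhythm of this process, and forkhead factors help to form the somite. Myogenic factors then commit somite cells to muscle. Hox and Cdx genes give the segments their position along the body axis, and the neural tube is subdivided into forebrain, midbrain, hindbrain and spinal cord at the same time.

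The arrays of 10 dpf had median Cy5 signals of 513, 348 and 544. Their mean of 468 ± 105 (SD, n = 3) was the highest of any time point, against 153 to 364 elsewhere, although the brightest single array, at 601, was of another time point. They lay on slides 3, 3 and 5 of 14. Members had a median Cy5 signal of 3984 at 10 dpf, against 2711 over the ranked probes, and their median Cy3 signal over all arrays was 580, against 1117.5. On an array of 10 dpf, 3 members had a Cy5 signal of 60000 or more, the level taken as saturation, so their ratios there may be too low. At 2 dpf 188 of the 200 members were under 500 on all 3 arrays, at 5 dpf 86 and at 15 dpf 35, and 97 members reached 500 on all 3 arrays at no time point but 10 dpf. Their differences from those time points are therefore less precise, and a fold against a time point under 500 on all 3 arrays is given as a lower bound from the Cy5 channel, which dye bias could shift.

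Some arrays stood apart. On replicate 1 of 15 dpf the log2 ratios differed by 1.11 between the lowest and the highest of 8 bands of array columns, and on replicate 1 of 30 dpf by 1.06, with the right side high on both. Replicate 1 of 41, 53, 77, 25 and 83 dpf had 0.78, 0.77, 0.62, 0.62 and 0.60, also high on the right. Replicate 1 of 47 dpf had 0.74, high on the left. All these arrays lay on slides 7 to 10. The arrays of 10 dpf, on other slides, had 0.167 to 0.189. Only 23 members (11.5%) lay in the 2 bands on the right, which held 25.3% of the ranked probes. With each band centred, 168 of the 200 were picked again and all 200 kept their highest mean at 10 dpf. Without replicate 1 of 15 dpf, 167 were picked again and all 200 kept it. Both recounts used arrays that had chosen the members, so they describe the choice and do not test it. The median of the members on that array was -0.34, against 0.24 and 0.36 on the other 2 arrays of 15 dpf. On replicate 3 of 20 dpf it was 0.25, against -0.24 and -0.36 on replicates 1 and 2, and this array shared slide 3 with 2 arrays of 10 dpf. The part of these gradients and slides in the choice of members was not tested.

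The median step of the members up to 10 dpf was larger than the step down after it. The members had a median log2 ratio of -1.19 at 2 dpf and -0.40 at 5 dpf, of 1.45 at 10 dpf, and of 0.09 at 15 dpf and -0.07 at 20 dpf, and this median stayed between -0.67 and -0.21 at all later time points. The quartiles of the members at 10 dpf were 1.13 and 1.79. The medians of the ranked probes other than the members stayed between -0.17 and 0.11 throughout. On the 3 arrays of 10 dpf the median of the members was 1.52, 1.44 and 1.40. The median difference of 10 minus 5 dpf was 1.87 and that of 15 minus 10 dpf was -1.27, or -1.10 without replicate 1 of 15 dpf.

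The margin that ranked the probes, the mean at 10 dpf minus the highest other mean on the deposited log2 scale, ran from 4.47 at rank 1 over a median of 1.01 to 0.74 at rank 200. It was over 2 for 10 members, between 1 and 2 for 93 and under 1 for 97. The cutoff fell on a smooth slope: C152R084 and C058R109 (sult1st2), the last pair inside it, had margins of 0.739 and 0.738, and the probes just outside, C035R050 and C164R093, had 0.735 and 0.733. Of the ranked probes, 2109 had their highest deposited mean at 10 dpf. The next-highest deposited mean lay at 15 dpf for 62 members, at 5 dpf for 36, at 20 dpf for 28, at 2 dpf for 5 and at 25 dpf or later for 69. For 87 members no other loess mean came within 1 log2 unit of that of 10 dpf, and for 20 members 4 or more did. The lowest array of 10 dpf lay above all 48 other arrays for 102 members, against 1.24% of all ranked probes. Since the ranking used the height of 10 dpf, this count describes the members and does not test the peak.

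Replicates at 10 dpf spread more for the members than for other probes, with a median SD of 0.35 over 3 arrays, against 0.23 over the ranked probes. The SD was over 0.8 for 17 members. The widest was C044R124, unnamed, with an SD of 3.38, and its array of 15 dpf replicate 1 was at 7.85, above its mean of 4.65 at 10 dpf. That ratio did not come from a high Cy5 signal, which was 220.5 on this array. On the arrays of 10 dpf the Cy5 signal of C044R124 was 645, 615 and 841.5. It was 712 on replicate 2 of 30 dpf, so its Cy5 signals at 10 and 30 dpf overlapped. Of the 17, only egr2b carried a name. When each array of 10 dpf was left out and the probes were ranked on the other 2, the value on the array left out was above all 16 other means for 190, 173 and 179 of the 200 probes picked, against 15.3%, 12.6% and 15.0% of all probes ranked that way. The 16 other means had also served to pick these probes, so the counts describe the picks and do not test the peak. These 3 picks shared 160, 139 and 163 probes with the members.

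Arrays of 10 dpf could also be set against arrays of the same slide. These arrays took part in the choice of the members, so the counts describe the members and do not test the peak. On slide 3 the first array of 10 dpf was above the array of 20 dpf for 183 of 200 members and above the array of 83 dpf for every member compared, and the second was above them for 174 of 200 and for every member compared. On slide 5 the third array was above those of 47, 53 and 65 dpf for all members compared but 1 each. In these pairs the array of 10 dpf was also the higher one for 51.5% to 59.2% of all ranked probes. On the 24 arrays of slides 1 to 6, which held 15 time points and only 1 array for 8 of them, 173 of 200 members kept their highest mean at 10 dpf, and of the 27 that did not, 19 were highest on the single array of 20 dpf. The median margin there was 0.58, against 0.94 on all arrays with the same loess values.

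Names were at hand for 78 members, 70 of them with a gene symbol, and 122 could only be given by probe. The names came from lists that the authors drew up on these same arrays for entities that changed, so named probes are not an even sample of the array. The roles given are those known from other vertebrates. The highest-ranked member, C047R096, had no name: it read -3.14, -2.67 and -3.48 at 5 dpf, 2.78, 2.22 and 2.10 at 10 dpf and -1.91, -2.71 and -2.82 at 15 dpf, and -4.33 to -1.43 on the other 42 arrays. Its 3 arrays of 10 dpf thus stood clear of all others by more than 3 log2 units. The following groups take the named members by role. For many of them the single arrays of 5, 10 and 15 dpf are given, and for others only means.

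Genes of the body axis were present with 4 Hox probes and 1 Cdx probe. Hox proteins are homeodomain factors that specify position along the axis, and Cdx1 is a caudal-type factor that acts upstream of Hox genes. The probe of hoxb7a read -3.87, -4.28 and -3.98 at 5 dpf, 1.69, 1.44 and 1.39 at 10 dpf and -1.09, 0.23 and -0.16 at 15 dpf. Its arrays of 10 dpf were above all 48 others, and the signal was at least 12.5-fold higher at 10 than at 5 dpf and 3.59-fold higher than at 15 dpf. The probe of hoxa9b read -2.44, -2.65 and -9.11 at 5 dpf, where 1 array was near the signal floor, 1.82, 1.29 and 1.66 at 10 dpf and -0.60, 0.20 and -0.07 at 15 dpf. It was at least 3.43-fold higher at 10 than at 5 dpf.

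For hoxc6 the values were -2.15, -1.29 and -2.14 at 5 dpf, 2.09, 1.43 and 2.71 at 10 dpf and 0.04, 0.82 and 0.28 at 15 dpf. The probe of hoxd10a, a gene of more posterior segments, read -0.79, -0.86 and -1.41 at 5 dpf, 1.45, 1.01 and 0.75 at 10 dpf and -0.28, -0.35 and 1.23 at 15 dpf, so its arrays of 10 and 15 dpf overlapped. The cdx1 probe was the seventh member by rank. Its time course was narrower, but this shape rests on dim signals. Outside 10 dpf the cdx1 probe was under 500 on every array. It read 0.03, 0.08 and 0.42 at 5 dpf, 2.79, 2.35 and 2.06 at 10 dpf and -0.20, -1.07 and -0.08 at 15 dpf, at least 3.85-fold higher at 10 than at 5 dpf and at least 4.09-fold higher than at 15 dpf. At 20 dpf cdx1 was at -2.38, -1.94 and -2.59, the lowest mean of its 17 time points, again from dim signals. Another cdx1 probe, which is no member and is given further below, fell less from 10 to 15 dpf.

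Somite and muscle regulators were present with 5 probes. HES6, of the Hes family, read -2.46, -1.65 and -1.56 at 5 dpf, 2.12, 1.26 and 1.43 at 10 dpf and -1.11, -0.60 and -0.43 at 15 dpf, with -3.29 to 0.17 on the other 42 arrays. HES1, a Notch target that represses transcription, read -3.10, -3.58 and -3.34 at 5 dpf, 1.21, 0.87 and 0.82 at 10 dpf and -0.64, -0.04 and 0.66 at 15 dpf. It was 19.8-fold higher at 10 than at 5 dpf, but only 1.97-fold higher than at 15 dpf. Foxc1, a forkhead factor of the paraxial mesoderm, had the same shape, with -3.64, -3.02 and -3.04 at 5 dpf, 0.99, 1.14 and 1.33 at 10 dpf and -0.90, 0.21 and 0.85 at 15 dpf. In both, the step before 10 dpf was far larger than the step after it.

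MYF5, an early myogenic determination factor, was the only muscle regulator among the members and had 2 probes there. The first read -2.11, -1.92 and -1.84 at 5 dpf, 1.29, 1.04 and 1.91 at 10 dpf and 0.37, 0.16 and -0.13 at 15 dpf. The second read -1.67, -1.39 and -1.30 at 5 dpf, 0.68, 1.23 and 1.48 at 10 dpf and -1.20, 0.09 and -0.13 at 15 dpf. Both were thus above all their arrays of 5 and 15 dpf at 10 dpf, the first by at least 6.85-fold over 5 dpf. SMTNL2, a relative of the smooth muscle protein smoothelin, had -1.70, -1.72 and -1.96 at 5 dpf, 1.86, 1.58 and 2.06 at 10 dpf and -0.03, -0.36 and -0.62 at 15 dpf.

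Neural and other transcription factors formed a further group. SOX21, a factor of neural progenitors, read -0.53, -0.85 and -1.42 at 5 dpf, 1.66, 1.80 and 0.92 at 10 dpf and 0.40, -1.33 and -0.79 at 15 dpf. egr2b, known as a marker of hindbrain segments, read -2.30, -0.53 and -0.10, 2.93, 1.48 and 1.62 and -0.19, -1.81 and -1.73 at 5, 10 and 15 dpf, and its first array of 10 dpf was far above the other two. The homeobox genes dlx5a, of the placodes and branchial arches, and XHOX-7.1, named after a Xenopus Msx-type gene, had means of 1.33 and 1.77 at 10 dpf. ETS2, an ETS-domain factor, read -1.89, -0.82 and -0.75 at 5 dpf, 2.10, 1.75 and 1.96 at 10 dpf and 0.32, 0.55 and 0.33 at 15 dpf. SP5, a zinc finger factor that responds to Wnt signals, had 2 probes. The first read -1.14, -1.18 and -1.43, 1.91, 1.52 and 1.43 and 0.28, -0.11 and 0.16 at 5, 10 and 15 dpf, and the second read 0.13, -0.72 and 0.23, 2.56, 1.53 and 1.91 and -0.69, -0.55 and -0.33. The second was also high later, up to 1.98 at 65 dpf, above its middle and lowest arrays of 10 dpf.

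Signalling and secreted proteins were fewer. BMPER, which binds bone morphogenetic proteins outside the cell, read -1.35, -1.10 and -0.71 at 5 dpf, 1.35, 1.51 and 1.58 at 10 dpf and -1.10, 0.38 and 0.59 at 15 dpf. Its arrays of 10 dpf were close together (SD 0.12) and above all others. DKK1, a secreted inhibitor of Wnt signalling, read 0.54, 1.04 and 0.71 at 5 dpf, 2.13, 1.86 and 2.00 at 10 dpf and 0.85, -0.07 and 0.48 at 15 dpf, and one array of 30 dpf, at 2.32, exceeded all 3. The probe of KIAA1772, described as a GREB1-like protein, had the largest margin of any named member. It read -0.09, 0.24 and -1.12 at 5 dpf, 3.71, 3.13 and 3.01 at 10 dpf and -0.68, 1.17 and 1.81 at 15 dpf. Histidine-rich glycoprotein, in mammals a plasma protein, followed with -0.85, -0.59 and -0.68, 3.03, 3.26 and 2.91 and -0.18, 0.36 and 0.34 at 5, 10 and 15 dpf, at least 11.4-fold higher at 10 than at 5 dpf.

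A few members encode proteins of the cell surface and the matrix. CD9, a tetraspanin of the cell membrane, had a mean of -0.39 at 5 dpf, and read 2.34, 2.59 and 2.19 at 10 dpf and -0.76, 1.11 and 1.17 at 15 dpf. Lamb1-1, the laminin beta-1 chain of basement membranes, read -1.23, -0.76 and -0.80, 1.94, 1.56 and 1.44 and -0.54, 0.65 and 0.93 at these times. CLDN3, a claudin of tight junctions, read -1.18, 0.32 and 0.10, 1.83, 1.94 and 2.36 and 0.63, 1.08 and 0.94. In all 3 genes replicate 1 was the lowest of the arrays of 15 dpf, the array with the widest gradient across its columns. HAPLN3, a link protein of the hyaluronan matrix, had means of -0.63 at 5 dpf, 1.84 at 10 dpf and 0.99 at 15 dpf. MYH9, a heavy chain of non-muscle myosin, had 0.61 ± 0.41 at 10 dpf (SD, n = 3), and its array of 20 dpf replicate 3, at 1.00, was higher than 2 of the 3 arrays of 10 dpf.

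The remaining named members of high rank included enzymes and transporters. FAM57A had 2 probes among the members. The first read -0.26, -0.74 and 0.01 at 5 dpf, 2.58, 2.76 and 1.47 at 10 dpf and 0.09, 0.73 and 0.47 at 15 dpf, and the second read -0.96, -0.57 and -0.62, 2.58, 2.32 and 2.52 and 1.49, 1.05 and 0.67. Both names of inositol-3-phosphate synthase, which makes the precursor of inositol from glucose phosphate, were present: ino1-A read -0.78, -0.99 and -0.99, 1.98, 1.47 and 1.60 and 0.10, -0.06 and 0.69 at 5, 10 and 15 dpf, and ino1-B read -0.77, -0.72 and -0.27, 1.58, 0.93 and 0.74 and -0.57, 0.12 and 0.37. Slc7a2 and SLC3A2, 2 separate genes of amino acid transport, were members too. Slc7a2 read -2.35, -0.98 and 0.08 at 5 dpf, 1.81, 2.44 and 1.84 at 10 dpf and 0.33, 0.74 and 0.60 at 15 dpf. The 2 SLC3A2 probes read 1.65, 1.46 and 1.47 and 1.60, 1.66 and 1.68 at 10 dpf, and at 15 dpf they were below 0 on all 3 arrays, with -0.73, -0.50 and -0.93 and -0.41, -0.89 and -1.11.

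The retinoid enzyme RDH8 had a mean of 1.65 at 10 dpf, Nqo1, a quinone reductase, 1.99, and the sulfotransferase SULT3A1 2.10. For SULT3A1 the 3 arrays of 10 dpf were close together (SD 0.07). The 2 probes of thymic parvalbumin CPV3, a calcium-binding protein, read 1.32, 2.35 and 1.45 and 1.37, 2.00 and 1.34 at 10 dpf, with replicate 2 the highest in both. The remaining names of the top 30 were Lrrc38, mpp1 and Perlwapin. Their means at 10 dpf were 1.79, 1.75 and 1.72. CALR, an endoplasmic reticulum chaperone, had 2 probes with 0.65 and 0.77 at 10 dpf, against negative means at 5 dpf.

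The 4 comparisons that leave out 10 dpf address what the members did on either side of the peak. They were taken from one limma fit of all 51 arrays over 20964 probes, and a call needed both a Benjamini-Hochberg adjusted p below 0.05 and a change of 2-fold or more. The rule capped every other time point below 10 dpf, but did not use the order among the others. Probes with a higher mean at any other time point could not be members. A shortage of rises to high levels there, or of falls from them, is therefore partly built in. The shares of all tested probes, which had no such cap, are given for scale and do not test that shortage. Beside them stand the shares of the 16122 ranked probes outside the members, which like the members reached 500 at 10 dpf. Each member entered through its signal at 10 dpf and could be tested with dim signals elsewhere. None of the 4 comparisons called 66 of the 200 members, where 30.8% of all probes tested in all 4 were called in none. Where a probe was under 500 on all 3 arrays of 1 of the time points, its fold is a lower bound as above, and where it was under 500 at both, or the bound was under 1, no fold is given.

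At 5 vs. 2 dpf, 72 members were higher and 8 lower, where 20.0% and 19.8% of all tested probes were called higher and lower, 39.8% in all. Of the ranked probes outside the members, 21.4% were higher and 19.8% lower. The median change of the members was 0.70, against -0.10 over all tested probes and -0.04 over the ranked probes outside the members. With median centring in place of loess, the median of all probes moved to 0.43 and that of the members to 0.80, so the members stood 0.36 above all probes rather than 0.80, with 80 called higher and 6 lower. This centring called 8149 of 20911 tested probes in either direction. Their split into higher and lower was not counted, and the shares above hold for loess only. Of the 80 calls, 7 reached 500 on at least 1 array of both time points, 23 had a lower bound over 1, 37 had a bound under 1 and 13 were under 500 at both. EIF3G, a subunit of an initiation factor, read -0.77, -0.76 and -0.33 at 5 dpf and -6.21, -4.30 and -3.53 at 2 dpf (at least 6.89-fold higher, adjusted p = 3.4e-10). The ribosomal protein probe rpl4-A read -0.29, -0.57 and -0.23 at 5 dpf and -3.32, -3.07 and -3.15 at 2 dpf (log2 change 2.82 ± 0.27 (SE), adjusted p = 3e-11). The phosphatase phospho1 rose as well (at least 6.61-fold higher, adjusted p = 1.6e-08), as did the unnamed C151R003 (at least 4.04-fold higher, adjusted p = 2.8e-10).

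The named falls at 5 vs. 2 dpf were regulators and a chaperone. Heat shock protein 5, a chaperone of the endoplasmic reticulum, read -2.16, -1.69 and -1.93 at 5 dpf and -0.30, -0.01 and -0.86 at 2 dpf (log2 change -1.54 ± 0.27 (SE), adjusted p = 9.3e-06). Foxc1 read -3.64, -3.02 and -3.04 at 5 dpf and -2.06, -1.25 and -1.98 at 2 dpf (adjusted p = 0.00067), and hoxa9b was called lower too (adjusted p = 0.028), but both probes were under 500 on all 6 arrays, and 1 floor value weighed on hoxa9b.

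On the far side of the peak more members were called higher than lower relative to the near side. At 15 vs. 5 dpf, 57 were higher and 1 lower, where 20.8% and 13.0% of all tested probes were called higher and lower, 33.8% in all. Of the ranked probes outside the members, 19.8% were higher and 13.2% lower. The median change of the members was 0.46, against 0.17 over all tested probes and 0.12 over the ranked probes outside the members. Without replicate 1 of 15 dpf, 60 were higher and 0 lower, with 6180 of 20825 tested probes called in either direction. Of the 58 calls, 25 reached 500 on at least 1 array of both time points, 25 had a lower bound over 1, 5 had a bound under 1 and 3 were under 500 at both. The Hox probe hoxb7a read -1.09, 0.23 and -0.16 at 15 dpf and -3.87, -4.28 and -3.98 at 5 dpf (at least 3.27-fold higher, adjusted p = 2e-10). The sulfotransferase sult1st2 read -0.90, 0.70 and 0.34 at 15 dpf and -4.19, -2.99 and -3.32 at 5 dpf (at least 6.47-fold higher, adjusted p = 1.2e-07). For hoxa9b, called higher with the floor value at 5 dpf (adjusted p = 2e-05), the bound was under 1.

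HES1 was also called higher at 15 than at 5 dpf, by 3.33 log2 units, as were Foxc1 (at least 2.68-fold higher, adjusted p = 6.9e-10) and XHOX-7.1 (C022R053, at least 4.95-fold higher, adjusted p = 3.5e-07). So were both thymic parvalbumin probes, by 1.29 and 1.20 log2 units, 1 of the MYF5 probes, by 1.04, HES6 (at least 1.27-fold higher, adjusted p = 0.0076) and hoxd10a, for which the bound was under 1. The other MYF5 probe, with 0.37, 0.16 and -0.13 at 15 dpf, was called as well (at least 2.65-fold higher, adjusted p = 0.00012). cdx1 was not called (adjusted p = 0.31). The single fall was that of the unnamed C064R071, under 500 at both times. Of the 200 members, 8 were called higher in both this comparison and 5 vs. 2 dpf, where 2.88% of all probes tested in both were.

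At 20 vs. 15 dpf few probes of any kind were called, 1.32% of all tested probes higher and 0.110% lower, 1.43% in all. Among the members 0 were higher and 5 lower, with 0 and 13 at an unadjusted p under 0.05 and the same fold change. The lack of rises is partly built in by the cap of the rule. Of the ranked probes outside the members, 0.825% were higher and 0.0682% lower. The median change of the members was -0.19, against 0.02 over all tested probes and 0.002 over the ranked probes outside the members. The 5 were FCGBP, a mucus protein (log2 change -2.21 ± 0.45 (SE), adjusted p = 0.0029), cdx1 (adjusted p = 0.037), the spinster-family transporter spns3 (log2 change -1.43 ± 0.36 (SE), adjusted p = 0.025), the second FAM57A probe (-1.35 ± 0.32, SE) and the unnamed C151R003. For cdx1 both time points were under 500 on all 3 arrays. The count was 3 without replicate 1 of 15 dpf and 1 without replicate 1 or replicate 2 of 20 dpf, so it rests on single arrays. In the same order, these settings called 224 of 20858, 209 of 20891 and 222 of 20899 tested probes.

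Late in the series far more members were called lower than higher, but the scarcity of rises is partly built in by the cap of the rule. At 89 vs. 20 dpf, 3 of the 200 were higher and 38 lower, with 1 not tested, where 14.6% and 11.2% of all tested probes were called higher and lower, 25.8% in all. Of the ranked probes outside the members, fewer were higher than of all tested probes, with 7.62% higher and 12.1% lower. The median change of the members was -0.54, against -0.14 over all tested probes and -0.23 over the ranked probes outside the members. Of the 41 calls, 21 reached 500 on at least 1 array of both time points and 13 had a lower bound over 1. A further 5 had a bound under 1 and 2 were under 500 at both. ino1-A read -1.17, -1.77 and -1.64 at 89 dpf and -0.12, 0.21 and 0.73 at 20 dpf (log2 change -1.80 ± 0.27 (SE), adjusted p = 1.3e-06). Foxc1, XHOX-7.1 and Lamb1-1 fell by 1.78, 1.73 and 1.23 log2 units. CD9 was at least 2.25-fold, spns3 at least 2.16-fold, Lrrc38 at least 1.91-fold, RDH8 at least 1.84-fold, CLDN3 at least 1.52-fold and HES6 at least 1.22-fold lower at 89 than at 20 dpf. FCGBP went the other way, with 0.35, 1.33 and 0.42 at 89 dpf and -2.48, -0.91 and -0.81 at 20 dpf (log2 change 2.10 ± 0.45 (SE), adjusted p = 0.0003), and Itm2c, a membrane protein, was called higher as well, with a bound under 1. Without replicate 3 of 20 dpf, the array on slide 3, 3 were higher and 21 lower. All tested probes called in either direction then numbered 5140 of 20892, against 5391 of 20893 with that array. The member count thus moved more than the count of all probes.

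Gene lists of the same processes were then read outside the 200. At 10 vs. 5 dpf, 11.9% of all tested probes were called higher and 8.47% lower, 20.3% in all, and at 15 vs. 10 dpf 9.31% were higher and 2.64% lower. The authors' lists favour probes that changed: among the named probes that are not members, 25.3% were higher and 19.5% lower at 10 vs. 5 dpf, and 17.2% were higher and 4.52% lower at 15 vs. 10 dpf. Medians of a list are of fitted log2 changes, which rest in part on probes under 500 at 5 dpf. All 10 tested Hox and Cdx probes outside the members were called higher at 10 than at 5 dpf, with a median change of 2.45. All 10 were under 500 on the 3 arrays of 5 dpf, and their lower bounds reached from 1.06-fold for 1 of 2 hoxc9 probes to 3.30-fold for the other. At 15 vs. 10 dpf only hoxd4a was called, higher by 1.78 on the log2 scale, and 4 of the 10 had their highest mean at 10 dpf.

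All 13 segmentation and Notch probes outside the members were called higher at 10 than at 5 dpf, with a median of 2.42. The 4 HES5 and Hes5 probes, of neural Notch targets, were higher by at least 1.80-fold to at least 13.6-fold, and the Notch ligand genes dlb and DLD changed by 2.69 and 1.09 and lfng, which modifies Notch, by 2.29 on the log2 scale. Most did not peak at 10 dpf: only 1 of the 13 was highest there, and 4 were called higher again at 15 than at 10 dpf. The other 2 HES6 probes had their highest means at 20 and 25 dpf, with -0.81 and -0.60 at 10 dpf.

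Regulators of heart, blood and endothelium had no member, yet 8 of 9 were called higher at 10 than at 5 dpf. gata4, a cardiac and endodermal factor, was at least 11.4-fold higher, hand2, a cardiac factor, at least 3.95-fold, and 1 probe of lmo2, a blood and endothelial cofactor, at least 11.7-fold, while the other lmo2 probe changed by 4.02 on the log2 scale. At 15 vs. 10 dpf only gata3 of the 9 was called, at least 18.6-fold higher. Neural regulators were mixed, with 9 of 15 higher and 1, otx2, lower at 10 than at 5 dpf. The 2 PAX6 probes were higher by at least 5.48-fold and 10.1-fold, and shha of the Hedgehog pathway, in the list of signals, by at least 6.40-fold. Of the 15 signal probes tested, 5 were higher and 3 lower, among the lower ones both cyp26a1 probes, of a retinoic acid degrading enzyme.

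The lists of other stages differed. Of 5 probes of blastula and gastrula regulators, 4 were called lower at 10 than at 5 dpf, with a median of -3.40, among them pou5f1 and all 3 of eomes. Cell cycle genes were higher in 3 and lower in 9 of 24, with a median of -0.89. Matrix genes were higher in 13 and lower in 3 of 36 at 10 vs. 5 dpf, and higher in 28 and lower in 0 at 15 vs. 10 dpf, where 17.2% of the named probes outside the members were higher. Genes of red cells, muscle fibres and lens, in the list to which MYH9 matched by its pattern, were higher in 5 and lower in 4 of 45 at 10 vs. 5 dpf, and higher in 30 and lower in 0 at 15 vs. 10 dpf. Epithelial genes were higher in 16 and lower in 6 of 34 at 10 vs. 5 dpf. Keratins accounted for several of the rises, as 1 of krt13 by at least 23.9-fold, and cldnd probes fell by up to 4.64 on the log2 scale. Lipid transport genes were higher in 6 and lower in 0 of 16.

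Other probes of the named genes report on the same transcripts or on close copies, since salmon carry duplicated copies of many genes. The 72 gene names among the members had 48 other probes on the array, spread over 29 names, and 20 of the 48 had their highest mean at 10 dpf, against 9.28% of all tested probes, members included, and 8.52% of the named probes outside the members. Of the 48, 42 were bright enough at 10 dpf to be ranked, which not all tested probes were. Among the 16322 ranked probes, members included, 2109 were highest at 10 dpf on deposited values. EIF3D was singled out after its values were seen: beside its 1 member, all 6 other probes had their highest mean at 10 dpf, with margins of 0.29 to 0.72. The second cdx1 probe was at -1.44 at 5 dpf, 1.27 at 10 dpf and 0.27 at 15 dpf. The 2 other SOX21 probes, 2 of 3 other CLDN3 probes and the other XHOX-7.1 probe were highest at 10 dpf as well.

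Probes of one name also disagreed. The other 2 CD9 probes had their highest means at 89 and 71 dpf, and the 3 other C21orf33 probes at 89 dpf, with -3.37 to -3.89 at 10 dpf. The other probes of Itm2c, SMTNL2 and FCGBP were highest at 83, 35 and 89 dpf. The other Foxc1 probe was highest at 25 dpf on loess values and at 10 dpf, by a margin of 0.04, on deposited values, and its loess means were 0.55 at 10 dpf and -1.42 at 5 dpf.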

How the data were processed

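Gene expression was measured in 51 whole Atlantic salmon individuals on 2-colour 44K oligonucleotide arrays, with 3 individuals at each of 17 time points and no dye swap. Slides were scanned and quantified by the authors, who deposited per array the background-corrected median intensity of each spot in both channels, with spot flags. The method of that correction is not given in the sources used here. The authors also deposited a table of Lowess-normalized log2 ratios with each probe centred on its median over the samples. Set against the probe-centred scanner ratios, its columns had correlations of 0.794 to 0.989. On the probe-centred loess ratios computed here they had a median slope of 1.00, and its column medians lay between -0.04 and 0.03. The centring of its probes does not enter the ranking, which uses differences within a probe.

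The 200 members were ranked on the deposited table, and 4 probes were left out before ranking. The members and the gene lists were chosen with earlier results of these data known. All other values are loess-normalized log2 ratios computed from the intensities with limma 3.58.1 in R 4.3.3, after signals below 1 (0.234% of Cy5 signals) were set to 1. Flagged spots (2.35%) were given no weight and are missing from means, and the 1531 control spots took no part. Flags touched 49 of 10200 member spots. One limma fit (lmFit, eBayes, two-sided) took in all 51 arrays, with 1 coefficient for each time point, on the 20964 probes whose Cy5 signal reached 500 without a flag on all 3 arrays of a time point. Calls needed an adjusted p below 0.05 and a change of 2-fold or more. The number of arrays limits the precision. Lower bounds of folds were taken from the Cy5 channel after loess and Aquantile scaling, with the dim signal set on each array to the lowest signal among probes of at least 500 or its own, whichever was higher. Each gene symbol was taken from the supplementary lists of the study, one of which was held only in part. Muscle regulators outside the members are not reported here. The fit was tested on simulated data. Counts used pandas 2.3.3 and numpy 2.4.6 under Python 3.11.15.

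Probes named are the 30 highest-ranked named members, all members that match a gene list, genes with 2 or more members, the pairs on either side of the cutoff, the 3 largest named rises and falls among the calls of each comparison, and other probes of named genes. Other members are named where a count of 5 or fewer includes them or beside their partner, and were then chosen after their values were seen. Replicate numbers did not pair the samples: deviations of same-numbered arrays had a median correlation of 0.02 (-0.26 to 0.39, 408 pairs). Individuals are biological replicates. Alternatives were other normalizations, filters, thresholds, fits and blocks, and leaving out arrays. Column bands, replicate 1 of 15 dpf and the arrays of slides 1 to 6 were added after the data were seen.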

Additional observations from a re-analysis of the deposited data

How the results depend on the processing

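At most 5 of the 200 members lost their highest mean at 10 dpf under every alternative but one, and 27 on the arrays of slides 1 to 6. These counts rest on the arrays that chose the members, so they do not test the peak. The choice of the 200 moved more: 189 were picked again on loess values and 130 on the Cy5 channel alone, and leaving out arrays kept 132 to 167. The members called numbered 80 at 5 vs. 2, 58 at 15 vs. 5, 5 at 20 vs. 15 and 41 at 89 vs. 20 dpf. The methods' t-test called 23, 16, 0 and 9 members unadjusted at the methods' threshold, and 19, 4, 0 and 0 after Benjamini-Hochberg adjustment. Over all tested probes it called 3464 of 20857, 2417 of 20755, 109 of 20793 and 1860 of 20736 unadjusted. After adjustment it called 3127, 1055, 0 and 81 of them. For the members an unadjusted p under 0.05 in this test gave 0 higher and 6 lower at 20 vs. 15 dpf. At 89 vs. 20 dpf it gave 3 higher and 23 lower. At 20 vs. 15 dpf the count was 2 with median centring, 3 without a filter on dim probes, 8 at an unadjusted p of at most 0.01, 0 on the 6 arrays alone (1 higher and 12 lower at an unadjusted p under 0.05), 2 with slide as a fixed block and 3 with column bands centred and replicate 1 of 15 dpf left out. In the same order, these settings called 185 of 20916, 194 of 43077, 675 of 20916, 44 of 20916, 191 of 20916 and 298 of 20858 tested probes. Leaving out arrays gave 63 to 77, 44 to 61, 1 to 6 and 24 to 53 calls. With the replicate number as a block the counts were 80, 60, 5 and 44, and the block changed none of these counts by over 1.5 times. Of the other alternatives, all counts stayed within 1.5 times. Aquantile scaling leaves log ratios as they are by construction, and another background correction was not run since the deposited intensities are already corrected. Signals under 500 limit most values at 2 dpf.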
